A study of Gallus gallus with 19 samples.

Results

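Ribosome biogenesis genes were followed in the neural plate border (NPB) of chicken embryos after knockdown of the pluripotency factors Nanog, PouV (the chicken Oct4, gene symbol Pou5f3) or Klf4. The genes were chosen by symbol, from the UTP, NOP, NOL, RRP, NOC and POLR1 families. Single symbols such as NCL, DKC1, PES1 and WDR3 were added. Apart from the filter on low counts the rule uses no measured value, but it was set with earlier results of these data known. They were 48 of the 18996 genes that passed the filter on low counts, out of 24356 genes counted. By role they comprised 4 subunits of RNA polymerase I, 2 proteins of box C/D small nucleolar ribonucleoproteins (snoRNPs), 3 proteins of box H/ACA snoRNPs, 25 factors of the small ribosomal subunit, 11 factors of the large subunit and nucleolin. The remaining 2, NOL4 and NOL4L, matched by name only and are not known as ribosome biogenesis factors. A further 7 genes of the same families (NOP16, NOL12, UTP14A, RRP36, NOP2, POLR1A and RRP8) carry a symbol only in RefSeq and were counted apart from the 48.

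Ribosomes are built in the nucleolus, where RNA polymerase I transcribes the ribosomal RNA precursor. SnoRNPs guide its chemical modification, box C/D particles adding methyl groups and box H/ACA particles converting uridine to pseudouridine, while large assemblies of processing factors fold it, cleave it and load it with ribosomal proteins. The genes are active in every growing cell, and in many cell types they are among the targets of the MYC transcription factors.

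Embryos of wild-type genotype were electroporated at the gastrula stage HH4 (Hamburger and Hamilton staging). The ectoderm on 1 side received a morpholino (MO), a synthetic antisense oligonucleotide that blocks translation, against Nanog, PouV or Klf4, and the opposite side received a control MO, both together with an empty pCIG plasmid as carrier. Dorsal neural folds at the level of the midbrain were collected at HH7/HH8-, and each sample is a pool of tissue from several embryos. Nanog MO was represented by 4 samples, PouV MO by 3 and Klf4 MO by 4, and the control MO by 8, of which 4 came from the Nanog, 2 from the PouV and 2 from the Klf4 experiment. The paper describes 4 replicates for every knockdown and more controls than these, so not all of its samples are included here. All 3 knockdowns were compared with the same 8 controls, so that the comparisons are not independent of each other. A translation-blocking MO need not lower its target's mRNA. NANOG was at 6.39 ± 1.26 CPM (reads of a gene scaled to an equal library size; SD, n = 4) in Nanog MO against 7.99 ± 3.51 in controls (n = 8), Pou5f3 at 1224 ± 264 in PouV MO (n = 3) against 869 ± 141, and KLF4 at 8.06 ± 4.34 in Klf4 MO (n = 4) against 6.72 ± 1.38, and none of these differences passed the test. The RNA levels therefore give no check of how far each protein was lowered.

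Each sample held 31215191 to 44726348 counted reads. Of the neural crest and NPB markers, all 9 were detected, from SOX10 at 3.73 to 7.38 CPM to TFAP2A at 72.5 to 179 CPM, but markers of neighbouring tissue were present too, and in such bulk tissue fewer cells of a type and less RNA per cell cannot be told apart. The summed level of 6 markers of non-neural ectoderm ran from 645 to 1151 CPM in controls, from 928 to 1467 in Nanog MO, from 1008 to 1790 in PouV MO and from 1183 to 1343 in Klf4 MO. Of the 6, only EPCAM, an epithelial adhesion gene, was called, after Nanog and PouV knockdown. The others differed in sign, with log2 fold changes of -0.26 for DLX5 and 0.50 for KRT18 after Nanog knockdown. None of the 6 was at 0 in all samples. The sum of 4 neural plate markers ran from 225 to 888 CPM in controls. It ran from 541 to 688 in Nanog MO, 262 to 619 in PouV MO and 175 to 305 in Klf4 MO. That of 3 notochord and floor plate markers ran from 34.0 to 677 CPM in controls, highest in Klf4 control replicate 3. The part of these tissues in the results below was not tested. One library stood apart: PouV MO replicate 3 held the highest value of all 19 samples for 22.2% and the lowest for 25.7% of 12191 genes, and it also had the highest sum of the non-neural ectoderm markers.

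Few ribosome biogenesis genes passed the test in any knockdown. Only WDR3, a core protein of the small subunit processome, rose, and it did so after Nanog knockdown. With edgeR's quasi-likelihood test and Benjamini-Hochberg adjustment, 1 of the 48 genes was called at an adjusted p under 0.05 after Nanog knockdown, where 0.258% of all tested genes were called, all of them higher. After PouV knockdown 0 were called, against 0.663% of all genes (0.479% higher and 0.184% lower). After Klf4 knockdown 0 were called, against 0.0158% of all genes (0.0105% higher and 0.00526% lower). With DESeq2, WDR3 was the 1 gene of the set called in each knockdown, where 0.595% (Nanog), 2.66% (PouV) and 0.405% (Klf4) of all genes were called. At an unadjusted p under 0.05 there were 2 of the 48 after Nanog knockdown (5.82% of all genes), both higher (3.89% of all genes, with 1.93% lower). There were 16 after PouV knockdown (15.7%), and 3 after Klf4 knockdown (6%), all higher (2.73% of all genes, with 3.26% lower). With a block for samples that share a replicate number, the Klf4 count fell to 1, with or without the factor for unwanted variation. Samples without a partner add nothing to the block's estimates, so its Klf4 and PouV values rest on the pairs of replicates 1 and 3. After Klf4 knockdown the block called 2 of all genes with the factor and 0 without it. The Nanog count was 4 with the block alone, where 271 of all genes were called. Klf4 counts were 10 without Klf4 control replicate 3 and 6 without PouV MO replicate 3, and in these fits the genes called among all tested rose as well, from 3 to 756 and 62.

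The median log2 fold change over the 48 genes was 0.03 for Nanog MO, 0.10 for PouV MO and 0.05 for Klf4 MO against controls, beside medians over all genes of 0.0036, -0.00052 and -0.00064. Values above 0 were found for 31, 34 and 33 of the 48 genes, against 50.9%, 49.9% and 49.8% of all genes. The Klf4 count was 17 without the factor for unwanted variation, 15 with the replicate block and the factor, and 19 without Klf4 control replicate 3. It was 31 with the block alone and 28 with the Klf4 controls alone. Among single control samples, the median deviation of the set from the control mean had an SD of 0.11 on the log2 scale (n = 8). The sign of the Klf4 median depended on the fit: it was -0.11 without the factor for unwanted variation, -0.056 with the replicate block and the factor, -0.046 without Klf4 control replicate 3 and -0.0014 without PouV MO replicate 3. It stayed above 0, at 0.045 with the block alone and 0.017 with the Klf4 controls alone, in fits that use no factor. The Nanog median was -0.0039 without Nanog MO replicate 3 and -0.0052 without Nanog control replicate 2, and 0.13 with the replicate block and the factor. The PouV median was 0.059 without PouV MO replicate 1 and 0.080 without replicate 3, where 33 of the 48 values were above 0. Against the PouV controls alone it was 0.014, below the median of 0.020 over all genes in that fit.

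**Figure D1:**
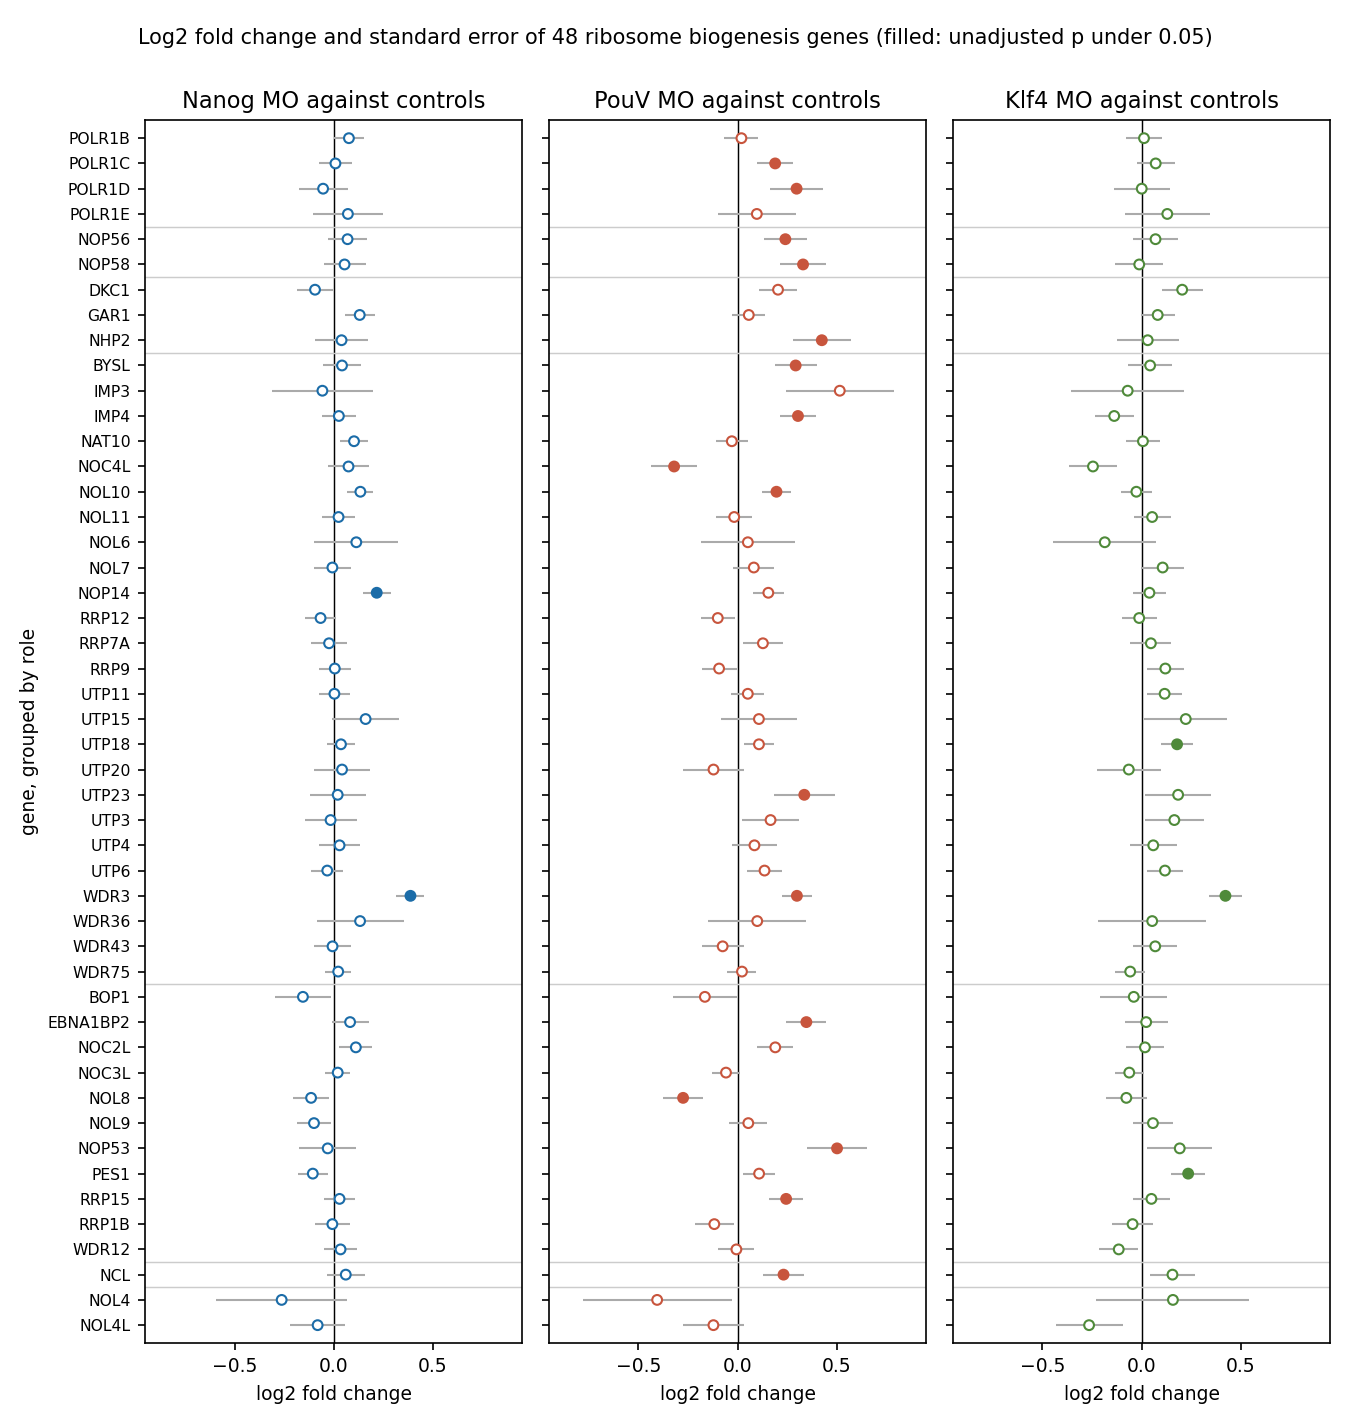
Log2 fold change of each of the 48 genes in each knockdown against the 8 controls, with bars for the standard error and genes grouped by role from RNA polymerase I subunits at the top to the name-only matches at the bottom. Filled points have an unadjusted p under 0.05, with 2 genes for Nanog, 16 for PouV and 3 for Klf4.

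The summed level of the 48 genes, of which NCL holds the largest share of reads, ran from 7975 to 9463 CPM in controls. It ran from 8405 to 9915 CPM in Nanog MO, from 8157 to 8943 CPM in Klf4 MO, and was 8990, 11173 and 8533 CPM in PouV MO replicates 1, 3 and 4. PouV MO replicate 3 was thus the highest of all samples, and the other PouV MO samples lay within the range of the controls. The same library was the highest of the 19 for 19 of the 48 genes and the lowest for 6.

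**Figure D2:**
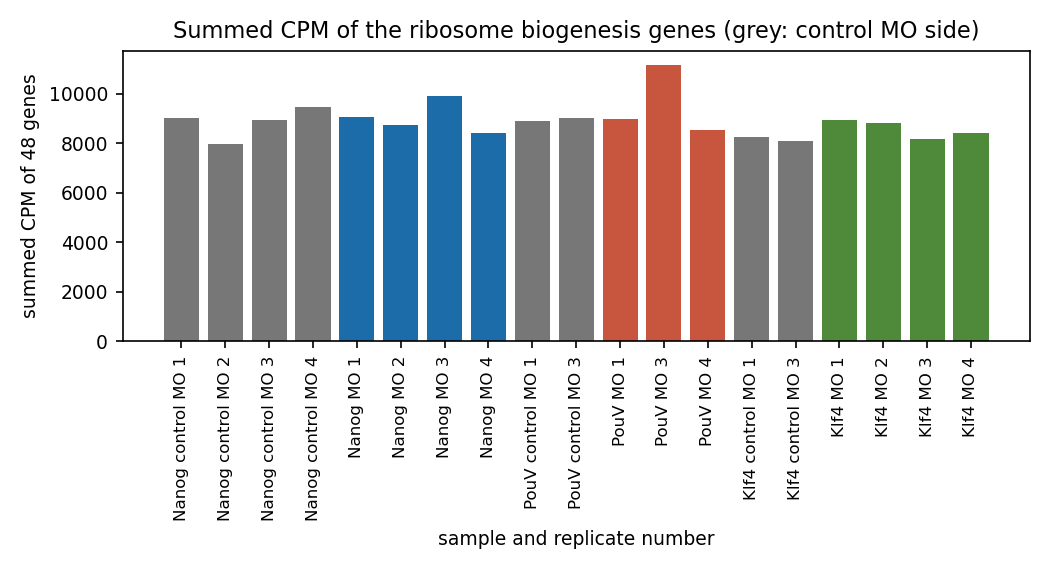
Summed CPM of the 48 ribosome biogenesis genes in each of the 19 samples, with control MO samples in grey and knockdown samples in colour. PouV MO replicate 3 reached 11173 CPM, and the other 18 samples lay between 7975 and 9915 CPM.

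Among the 16 genes at an unadjusted p under 0.05 after PouV knockdown, 14 were higher (9.38% of all genes) and 2 lower (6.34%). None passed the adjusted test. Leaving out PouV MO replicate 3 left 1 of the 48 higher (3.43% of all genes) and 1 lower (3.15%), namely WDR3 and NOC4L. The 16 are therefore given below with and without this library.

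The 4 subunits of RNA polymerase I had small values after Nanog and Klf4 knockdown, with log2 fold changes from -0.05 to 0.08 and from 0.00 to 0.13. POLR1B, the second-largest subunit and the one with most reads, was at 102 to 159 CPM in controls, with a median of 133. It was at 161, 131, 162 and 134 CPM in Nanog MO, 140, 130 and 130 CPM in PouV MO, and 144, 118, 112 and 97.5 CPM in Klf4 MO. The groups overlapped, and the log2 fold changes were 0.08 ± 0.08 (SE), 0.02 ± 0.09 and 0.01 ± 0.09. POLR1C and POLR1D, which RNA polymerase I shares with RNA polymerase III, had log2 fold changes of 0.19 and 0.30 after PouV knockdown, and of 0.10 and 0.04 without PouV MO replicate 3. POLR1D was at 59.6 CPM in that library and at 37.1 and 33.3 CPM in the other PouV MO samples, against 29.0 to 41.1 CPM in controls. POLR1E was the most variable of the subunits in controls and is taken up with the Z-linked genes.

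Both box C/D proteins, NOP56 and NOP58, which form the core of the methylating particles, followed the same library. NOP56 was at 206 to 334 CPM in controls (median 280), and at 291, 437 and 221 CPM in PouV MO replicates 1, 3 and 4. NOP58 was at 217 to 298 CPM in controls (median 265), and at 280, 445 and 268 CPM in PouV MO. For each gene 1 PouV MO sample lay above every control and the others did not, and the log2 fold changes of 0.24 and 0.33 became 0.02 and 0.09 without it. After Nanog knockdown the values were 0.07 and 0.06, and after Klf4 knockdown 0.07 and -0.01. These values come from the fit with the factor for unwanted variation. The levels of NOP56 in Klf4 MO, at 257, 249, 211 and 191 CPM, all lay below the control median. The Klf4 controls, at 234 and 206 CPM, lay below it too.

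Of the box H/ACA proteins, dyskerin (DKC1) is the pseudouridine synthase, and GAR1 and NHP2 are its partners. DKC1 was at 486 to 616 CPM in controls (median 549). It was at 513, 523, 591 and 475 CPM in Nanog MO, 540, 832 and 506 CPM in PouV MO, and 625.3, 594, 519 and 525 CPM in Klf4 MO. Only PouV MO replicate 3 and Klf4 MO replicate 1 exceeded the controls, and the log2 fold changes of -0.09 ± 0.09, 0.20 ± 0.10 and 0.21 ± 0.10 did not pass the test. NHP2 was at 137 CPM in PouV MO replicate 3 and at 74.4 and 59.8 CPM in the other PouV MO samples, against 54.6 to 84.2 CPM in controls. GAR1 varied least of the 48 genes among controls, with a coefficient of variation of 5.88%, and its log2 fold changes were 0.13, 0.06 and 0.08.

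The small subunit factors included the 1 gene that was called. WDR3 (ENSGALG00000014791) belongs to the UTP-B complex, which binds the nascent precursor early in processome assembly. It was at 117 to 158 CPM in controls, with a median of 140 and a mean of 138 ± 12.6 (SD, n = 8). It was at 186, 167, 226 and 160 CPM in Nanog MO replicates 1 to 4. It was at 170.5, 167 and 161 CPM in PouV MO replicates 1, 3 and 4. It was at 186, 169, 148 and 158 CPM in Klf4 MO replicates 1 to 4.

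Every Nanog MO sample lay above every control, a pattern shown by 0.479% of all genes, and so did every PouV MO sample (1.06%), while Klf4 MO overlapped the controls in replicates 3 and 4. No other gene of the 48 had all knockdown samples above all controls (1.33% of all genes in Klf4 MO) and none had them all below, against 0.153% of all genes in Nanog MO, 0.848% in PouV MO and 1.37% in Klf4 MO. The level of WDR3 rose 1.31-fold after Nanog knockdown, a log2 fold change of 0.39 ± 0.07 (edgeR, adjusted p = 0.0155). The log2 fold changes for the other knockdowns were 0.30 ± 0.08 (PouV, edgeR, adjusted p = 0.0857) and 0.42 ± 0.08 (Klf4, adjusted p = 0.0734). DESeq2 gave WDR3 adjusted p values of 0.000157 (Nanog), 0.019 (PouV) and 0.00124 (Klf4). WDR3 is also on the study's list of genes changed in all 3 knockdowns. That list was drawn from the same experiments, with more samples than here, and is no independent evidence.

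The Nanog call depended on the fit and on single samples. With a block for samples sharing a replicate number it was lost (log2 fold change 0.33, edgeR, adjusted p = 0.109). In that fit 271 of all genes were called after Nanog knockdown, against 49 without the block and with the factor. The block and the factor for unwanted variation together gave 0.51 (edgeR, adjusted p = 0.123), without a call. The Nanog call was also lost with the 4 Nanog controls alone (0.34, edgeR, adjusted p = 0.457) and without the factor (0.42, adjusted p = 0.106). It was lost without Nanog MO replicate 1 (0.39, edgeR, adjusted p = 0.0662) or 3 (0.31, adjusted p = 0.121). The direction was the same in all of these. After Klf4 knockdown WDR3 was called without Klf4 control replicate 3 (0.32, edgeR, adjusted p = 0.0445), without PouV MO replicate 3 (0.40, adjusted p = 0.0187) and with replicate sets of all 4 groups (0.35, adjusted p = 0.0411). Its Klf4 value was 0.26 without the factor (edgeR, adjusted p = 0.121) and 0.21 with the block and the factor (adjusted p = 0.852). With the block alone, which rests on the Klf4 pairs of replicates 1 and 3, it was 0.38 (edgeR, adjusted p = 0.873). That fit called 0 of all genes after Klf4 knockdown. With the Klf4 controls alone the WDR3 value was 0.36 and not called. Leaving out Klf4 MO replicate 1 gave 0.38 (edgeR, adjusted p = 0.351). After PouV knockdown WDR3 had 0.34 with the block alone (edgeR, adjusted p = 0.276). Its value there was 0.32, not called, with the PouV controls alone.

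**Figure D3:**
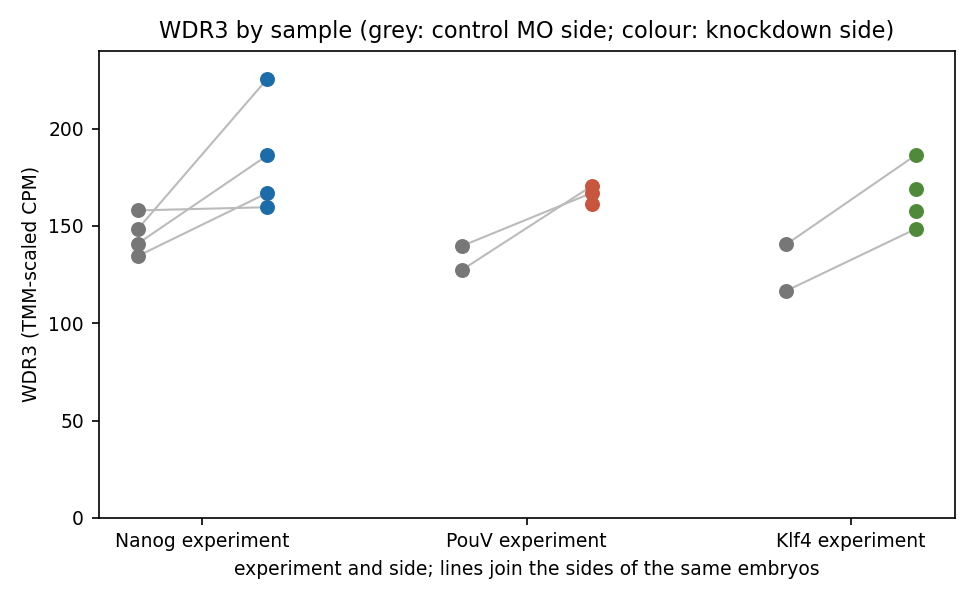
WDR3 level in CPM in each sample, by experiment, with control MO samples in grey on the left and knockdown samples in colour on the right. Lines join samples that share a replicate number, taken as the sides of the same embryos. In all 8 joined pairs the knockdown side was higher, by 0.015 to 0.60 on the log2 scale.

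Sides paired by replicate number gave a further view of the same samples. WDR3 was higher on the knockdown side in 8 of 8 pairs, by 0.015 to 0.60 on the log2(CPM + 1) scale with a median of 0.37. The smallest difference was that of Nanog replicate 4, at 160 against 158 CPM. The deviations of its sides from their group means correlated at -0.00506, against 0.529 to 0.679 in the other 7 pairs. Whether its sides came from 1 pool was not otherwise checked. Of 13781 genes 1.95% were higher in all 8 pairs, and among the 48 only WDR3 and UTP23 were, UTP23 by 0.0020 to 0.34. NOL4 and NOL8 were lower in 8 of 8 pairs, as were 3.26% of genes, NOL8 by 0.021 to 0.39 and NOL4, a gene of few reads at 1.25 to 6.51 CPM, by 0.081 to 0.49.

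The effect of the knockdowns on WDR3 was not shown to differ between them. With each knockdown measured from its own controls only, the PouV effect minus the Nanog effect was -0.03 ± 0.18 (SE), the PouV minus the Klf4 effect -0.05 ± 0.19, and the Nanog minus the Klf4 effect -0.02 ± 0.17 on the log2 scale. In these 3 comparisons edgeR called 0 of the 48 genes and 0% of all genes, and at an unadjusted p under 0.05 it gave 0 of the 48 genes in each, against 2.51%, 2.66% and 2.93% of all genes. DESeq2 was not run on these differences.

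NOP14 and NOC4L act as partners in the processome. NOP14 was at 84.7 to 116 CPM in controls (median 96.1) and at 116, 107, 137 and 109 CPM in Nanog MO. The upper 2 Nanog MO samples exceeded every control, and the log2 fold change was 0.22 ± 0.07 (edgeR, adjusted p = 0.465). NOC4L was at 83.3 to 135 CPM in controls (median 118). It was at 75.4, 101 and 88.0 CPM in PouV MO and at 103, 74.9, 80.8 and 71.9 CPM in Klf4 MO, all below the control median. Both Klf4 controls, at 109 and 83.3 CPM, lay below that median too. The Klf4 pairs of replicates 1 and 3 differed by -0.08 and -0.04 on the log2(CPM + 1) scale. The log2 fold changes of NOC4L were -0.32 ± 0.12 in PouV MO (edgeR, adjusted p = 0.2), -0.25 ± 0.12 in Klf4 MO (adjusted p = 0.86) and 0.08 in Nanog MO, so the partners had values of opposite sign in PouV MO and Klf4 MO samples without either passing the test.

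IMP4 works with IMP3 in pairing the U3 snoRNA with the precursor. IMP4 was at 60.1 to 79.7 CPM in controls (median 76.6), at 79.5, 115 and 68.7 CPM in PouV MO, and at 63.9, 56.8, 50.0 and 53.2 CPM in Klf4 MO. Klf4 MO replicates 2 to 4 lay below every control and PouV MO replicate 3 far above them. The Klf4 controls, at 65.2 and 60.1 CPM, were also the lowest of the controls. The Klf4 pairs of replicates 1 and 3 differed by -0.03 and -0.26 on the log2(CPM + 1) scale. The log2 fold changes of IMP4 were 0.30 ± 0.09 in PouV MO (edgeR, adjusted p = 0.135), 0.12 there without replicate 3, and -0.14 ± 0.10 in Klf4 MO (adjusted p = 0.944). IMP3 was among the most variable genes in controls, from 43.2 to 113 CPM, and its log2 fold change of 0.52 ± 0.27 after PouV knockdown did not reach an unadjusted p under 0.05.

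NOL10, a nucleolar protein of the processome, was at 52.9, 57.7, 62.5 and 57.1 CPM in Nanog MO against 46.6 to 57.7 CPM in controls (log2 fold change 0.14 ± 0.07, edgeR, adjusted p = 0.864). UTP18, which like WDR3 belongs to UTP-B, was at 139, 125, 117 and 119 CPM in Klf4 MO against 99.1 to 127 CPM in controls (0.18 ± 0.08, edgeR, adjusted p = 0.78). UTP18 had log2 fold changes of 0.04 after Nanog and 0.11 after PouV knockdown, beside 0.39 and 0.30 for WDR3. WDR43, the small subunit factor with most reads, was at 230 to 337 CPM in controls and at 314, 240, 275 and 281 CPM in Nanog MO, 305, 215 and 298 CPM in PouV MO, and 317, 308, 342 and 313 CPM in Klf4 MO (-0.01, -0.08 and 0.07). Over all 25 small subunit factors, 18, 18 and 17 had values above 0, and the medians were 0.03, 0.10 and 0.05 in the same order of Nanog, PouV and Klf4.

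The large subunit factors had no called gene, with medians of -0.01, 0.05 and 0.02 over 11 genes. EBNA1BP2, an assembly factor of the large subunit, was at 71.2 to 119 CPM in controls (median 103) and at 114, 168 and 92.5 CPM in PouV MO. Its log2 fold change after PouV knockdown was 0.35 ± 0.10 (edgeR, adjusted p = 0.12), and 0.15 without PouV MO replicate 3. EBNA1BP2 and IMP4 were among the 4 genes of the set called after PouV knockdown when replicate 4 was left out instead (edgeR, adjusted p = 0.0333 and 0.0417), which left PouV MO replicate 3 as 1 of 2 samples. In that fit 501 of all genes were called, against 126 with every sample. NOP53, which links the maturing large subunit to the RNA exosome, followed the same sample, with 286 CPM in PouV MO replicate 3, against 148 and 158 CPM in the other PouV MO samples and 115 to 178 CPM in controls.

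PES1, BOP1 and WDR12 form the PeBoW complex, needed for maturation of the large subunit RNAs. PES1 was at 231 to 288 CPM in controls (median 262) and at 317, 298, 311 and 284 CPM in Klf4 MO, of which replicates 1 to 3 exceeded every control. The log2 fold change of PES1 was 0.24 ± 0.09 after Klf4 knockdown (edgeR, adjusted p = 0.628) and -0.10 ± 0.08 after Nanog knockdown (adjusted p = 0.975), where its levels were 247, 241, 251 and 228 CPM, all below the control median. After Klf4 knockdown its partners BOP1 and WDR12 had values of -0.04 and -0.12. BOP1 was at 84.2 CPM in PouV MO replicate 3, below every other sample, although 31 of the 48 genes lay above their control mean there.

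NOL8, a nucleolar protein, was at 58.4 to 84.1 CPM in controls (median 71.6). It was at 64.5, 67.1, 68.4 and 71.0 CPM in Nanog MO and at 66.3, 53.1 and 57.6 CPM in PouV MO, all below the control median. The log2 fold changes were -0.11 ± 0.09 (edgeR, adjusted p = 0.986) and -0.27 ± 0.10 (adjusted p = 0.195), with -0.19 for PouV without replicate 3. NOL9, a polynucleotide kinase that acts in processing of the large subunit RNA precursor, was at 299, 258, 256 and 272 CPM in Nanog MO. Its controls were at 246 to 329 CPM (-0.10 ± 0.09, edgeR, adjusted p = 0.997). RRP1B was at 146, 108 and 145 CPM in PouV MO against 121 to 161 CPM in controls (-0.12 ± 0.10, edgeR, adjusted p = 0.577), and without replicate 3 its value turned to 0.035.

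Nucleolin (NCL), an abundant RNA-binding protein of the nucleolus, was at 2495 to 3162 CPM in controls (median 2824). It was at 2810, 2954, 3345 and 2654 CPM in Nanog MO, 2614, 4240 and 2884 CPM in PouV MO, and 2740, 2934, 2891 and 3030 CPM in Klf4 MO. Nanog MO replicate 3 and PouV MO replicate 3 lay above every control and the other samples within their range. Its log2 fold change of 0.23 ± 0.10 after PouV knockdown (edgeR, adjusted p = 0.285) became 0.02 without replicate 3. Of the name-only matches, NOL4L was at 15.2, 18.4, 23.1 and 23.9 CPM in Klf4 MO against 18.4 to 28.4 CPM in controls (-0.26 ± 0.17, edgeR, adjusted p = 0.924).

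**Figure D4:**
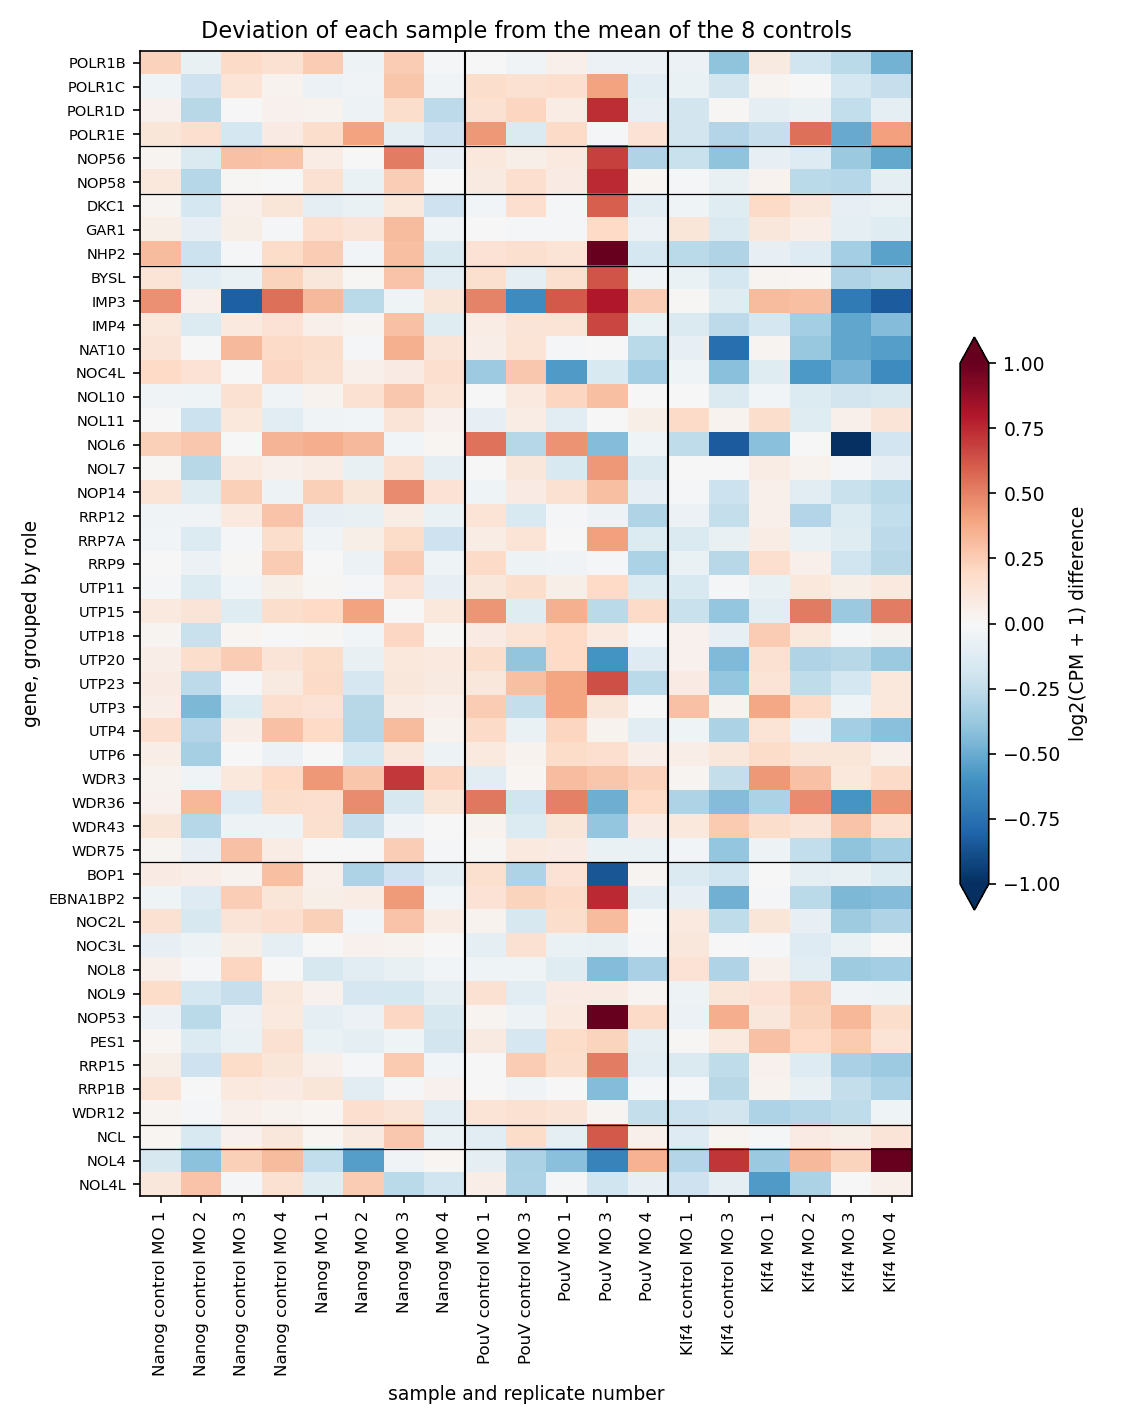
Deviation of each of the 48 genes (in role order) in each of the 19 samples from the mean of the 8 controls, as a log2(CPM + 1) difference with red above and blue below the mean and colours limited at 1 in either direction. PouV MO replicate 3 holds the highest value of 19 of the 48 genes, beside 22.2% of 12191 genes. Klf4 MO replicates 3 and 4 hold the lowest value of 9 and 10 of the 48, beside 9.42% and 7.9% of those genes. WDR3 is above the mean in all 11 knockdown samples.

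The coefficient of variation over the 8 controls had a median of 11.5% (5.88% to 40.0%), against 15.0% over 12191 genes with at least as many reads as the lowest of the set, a comparison not matched for level. The controls were not alike across experiments, however. In the 2 Klf4 controls the median deviation of the 48 genes from the mean of all controls was -0.12 on the log2 scale, with 9 of 48 genes above that mean, against 0.05 (32 of 48) in the Nanog and 0.05 (31 of 48) in the PouV controls. The factor for unwanted variation was positive in all 6 samples of the Klf4 experiment (0.29 to 1.94) and between -1.47 and 0.66 in the other 13, so that it moved with the experiment.

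The most variable genes in controls included a group defined by chromosome. RefSeq places 4 of the 48 genes, NOL6, POLR1E, UTP15 and WDR36, on the sex chromosome Z, of which male birds carry a pair and females a single copy. The labels give no sex, and HINTW, which lies on W and is thus expressed in females, ran from 183 to 2303 CPM in 17 samples and was at 2.97 and 0.75 CPM in Klf4 MO replicates 2 and 4. UTP15, a processome protein that also aids transcription of the precursor, was at 124 and 123 CPM in those samples, above the 65.5 to 117 CPM of the other 17. POLR1E was at 88.8 and 80.6 CPM, against 42.3 to 82.1 CPM, and WDR36 at 141 and 139 CPM, against 67.3 to 147 CPM. NOL6 was within the range of the others, at 141 and 123 CPM against 64.1 to 205 CPM. Within the Klf4 experiment, however, the other samples were lower, at 117 and 78.2 CPM (controls) and at 105 and 64.1 CPM (Klf4 MO).

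UTP15, the other gene of the set on the study's list of genes changed in all 3 knockdowns, was at 98.9, 114, 85.9 and 92.2 CPM in Nanog MO, 110, 71.1 and 98.2 CPM in PouV MO, and 79.8, 124, 66.2 and 123 CPM in Klf4 MO, against 65.5 to 117 CPM in controls. The groups overlapped, and the log2 fold changes of 0.16 ± 0.17 (edgeR, adjusted p = 0.997), 0.11 ± 0.19 (adjusted p = 0.824) and 0.22 ± 0.21 (adjusted p = 0.961) did not pass the test. With the HINTW level as a covariate, a fit chosen after the values had been seen, the Klf4 value of UTP15 was -0.16. The PouV value of UTP15 was -0.07 against the PouV controls alone.

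**Figure D5:**
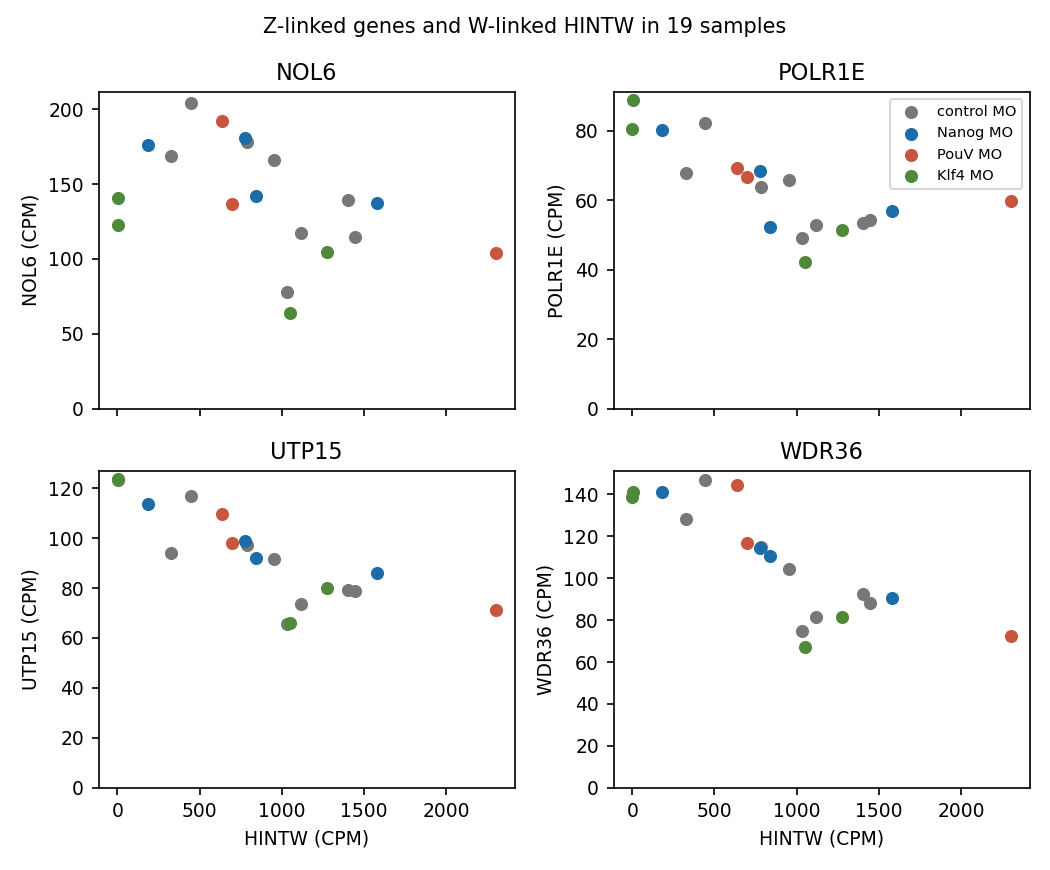
Level in CPM of the Z-linked genes NOL6, POLR1E, UTP15 and WDR36 (vertical axes) against that of the W-linked gene HINTW (horizontal axes) in the 19 samples, coloured by treatment. Klf4 MO replicates 2 and 4, with HINTW at 2.97 and 0.75 CPM, lie at the left edge and hold the 2 highest levels of UTP15.

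Other genes of the pathway were described by a list of 106 ribosome biogenesis factors outside the set, of which 92 were tested. Called genes numbered 0 (Nanog), 1 (PouV) and 0 (Klf4) with edgeR, beside 0.258%, 0.663% and 0.0158% of all genes, and their median log2 fold changes were 0.07, 0.09 and 0.01. At an unadjusted p under 0.05 after PouV knockdown 22 of the 92 were higher and 5 lower, beside 9.38% and 6.34% of all genes. This count was not repeated without PouV MO replicate 3. For the 48 genes, leaving out that library took the number of higher genes from 14 to 1. After Nanog knockdown 2 were higher and 1 lower (3.89% and 1.93% of all genes), and after Klf4 knockdown 6 were higher and 2 lower (2.73% and 3.26%). Of the 7 family members named only by RefSeq, 0 were called, and 5, 6 and 4 had values above 0.

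The called gene was EXOSC7, a ring subunit of the RNA exosome that trims precursor RNA, named here after its values were seen. It was at 32.7 to 67.5 CPM in controls and at 26.2, 43.5 and 29.3 CPM in PouV MO. PouV MO replicates 1 and 4 lay below every control and replicate 3 within them. The PouV controls, at 57.7 and 65.3 CPM, lay above all PouV MO samples. The level fell by 0.65 on the log2 scale (edgeR, adjusted p = 0.00694). EXOSC7 remained called without any single sample (highest adjusted p = 0.0472) and with the block alone (edgeR, adjusted p = 0.0476). It was not called with the block and the factor (0.0945), without the factor (0.175) or with the PouV controls alone (0.47). In that last fit its value was -0.90, and edgeR called 0 of all genes after PouV knockdown.

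GNL3, which encodes the nucleolar GTPase nucleostemin and was likewise named after its values were seen, was at 186, 159, 212 and 177 CPM in Nanog MO against 197 to 246 CPM in controls. Nanog MO replicates 1, 2 and 4 lay below every control and replicate 3 within them. The log2 fold change of GNL3 was -0.31 ± 0.07 (edgeR, adjusted p = 0.0692). It was called with DESeq2 (adjusted p = 0.00405), and by edgeR with the replicate block alone (adjusted p = 0.0291) or replicate sets of all 4 groups (0.0415). It was not called with the block and the factor (edgeR, adjusted p = 0.454), without the factor (0.358) or with the Nanog controls alone (0.367). With samples left out in turn it was not called in 16 of 19 fits. The exceptions were without Nanog MO replicate 3 (edgeR, adjusted p = 0.0455), Nanog control replicate 2 (0.0397) or PouV MO replicate 3 (0.0431).

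MYC, MYCN and MYCL, which encode transcription factors that drive ribosome production in many cells, and their partner MAX were not called in any knockdown by edgeR with all 8 controls and no block, or by DESeq2. After Nanog knockdown MYC had a log2 fold change of 0.45 (edgeR, adjusted p = 0.543), while MYCN had -0.34 (adjusted p = 0.713), MYCL -0.32 (adjusted p = 0.224) and MAX -0.21 (adjusted p = 0.558), each at an unadjusted p under 0.05. MYC was at 62.2, 50.9, 70.2 and 47.9 CPM in Nanog MO. Its controls ran from 47.2 to 53.9 CPM in the Nanog experiment. They were at 26.1 and 59.1 CPM in the PouV experiment and at 23.1 and 18.5 CPM in the Klf4 experiment. Against the Nanog controls alone the MYC value was 0.18 and was not called. With the block alone it was 0.17 (edgeR, adjusted p = 0.455). MYCN was at 205, 146, 180 and 188 CPM in Nanog MO. Its controls ran from 212 to 316 CPM in the Nanog experiment, from 183 to 228 CPM in the PouV experiment and from 141 to 161 CPM in the Klf4 experiment, so that Nanog MO lay below its own controls and within the range of all 8. With the replicate block and no factor for unwanted variation, the Nanog value of MYCN was -0.58 and was called (edgeR, adjusted p = 0.0362), and with the block and the factor it was -0.44 (adjusted p = 0.49).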

How the data were processed

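The authors aligned paired-end reads with STAR 2.7.2a to the chicken build GRCg6a, per the submitters' processing notes, and deposited raw counts per gene. The counter and annotation release are not given in the sources used here. The deposited table of TMM-scaled signal values supplied gene names and no values. Symbols came from it for 12495 genes, from RefSeq (assembly GRCg7b, matched by Entrez ID) for 1831, and 4670 genes had none. RefSeq also gave which of the 48 genes lie on chromosome Z.

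Genes whose highest count over the samples exceeded 5 were kept. The 19 samples were fitted in edgeR 4.0.16 (R 4.3.3) with TMM, 4 groups, 1 RUVs factor and the quasi-likelihood test, with Benjamini-Hochberg adjustment over all genes. RUVs, which estimates unwanted variation, was written out: upper-quartile scaled counts plus 1 on a log scale, the controls as the replicate set, and the 1000 genes of lowest coefficient of variation. Standard errors were taken as the log2 fold change over the square root of F. Differences between knockdowns used 6 groups and no factor. CPM values are scaled by TMM library size. The fits were run on simulated counts of independent samples, with changes of 1 on the log2 scale planted in PouV MO. Such counts hold no pairs or differences between experiments, and smaller changes were not simulated. P-values set the difference between groups against the spread between samples. Where the controls of the experiments are pooled, that spread also holds differences between experiments and pools. Except with the replicate block, both sides of a pool of embryos counted as independent samples. The block gives each replicate number of an experiment its own term. Klf4 MO replicates 2 and 4 and PouV MO replicate 4, which have no partner, therefore add nothing to its estimates. Reads are not corrected for gene length or overlapping genes. Alternatives were the number of factors (0 or 2), the replicate sets, DESeq2 1.42.0, RLE size factors, no filter or a stricter one, controls of the same experiment, a replicate block, each sample left out and, added after the data were seen, HINTW as a covariate.

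From the bilateral design, a knockdown and a control sample that share a number were taken as opposite sides of 1 pool of embryos. The sample titles give the replicate number and do not state the pool. Their deviations from group means correlated at 0.529 to 0.679 in 7 of 8 pairs and at -0.00506 in Nanog replicate 4.

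The genes and lists were chosen with earlier results of these data known. Named genes were the called ones, the 3 of smallest p in each direction and knockdown among genes with a mean of at least 5 CPM, those on the study's list of genes changed in all 3 knockdowns, and the gene with most reads in each role group. Other genes were named after their values were seen.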

Additional observations from a re-analysis of the deposited data

Results flagged for a closer look

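In groups of 4 to 8 samples, 2 of 57 groups tested held a sample far from the rest, and chance alone sets about 1 in 20 groups apart in this way. RRP1B was at 121 CPM in Klf4 control MO replicate 3, against 143 to 161 CPM in the other 7 controls. UTP18 was at 134 CPM in Nanog MO replicate 3, against 114 to 117 CPM in the other Nanog MO samples. No gene of the set differed between knockdowns by the test of the difference.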

How the results depend on the processing

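The PouV count at an unadjusted p under 0.05 rests mostly on 1 library. The sign of the Klf4 median depends on the correction for unwanted variation, on the controls used and on single samples. NOL4 and UTP23 have the fewest reads. After Nanog knockdown 0 genes of the set were called with controls of the same experiment, without the RUVs factor, and with the replicate block with or without the factor. Among all genes 33 were called with controls of the same experiment and 26 without the factor. With the block 46 were called with the factor and 271 without it, against 49 in the fit used above. DESeq2 called 1 gene after PouV and 1 after Klf4 knockdown, and replicate sets of all 4 groups called 1 after Klf4 knockdown. The Klf4 median turned to -0.11 without the factor, -0.056 with the replicate block and the factor, and -0.018 with replicate sets of all 4 groups. It was 0.045 with the block alone and 0.017 with controls of the same experiment. With samples left out in turn, called genes ranged from 0 to 1 after Nanog, from 0 to 4 after PouV and from 0 to 1 after Klf4 knockdown, and the medians from -0.0052 to 0.039 for Nanog, from 0.059 to 0.14 for PouV and from -0.046 to 0.073 for Klf4. PouV counts at an unadjusted p under 0.05 were 2 with controls of the same experiment, 7 without the factor and 10 with replicate sets of all 4 groups. In these fits edgeR called 0, 63 and 121 of all genes after PouV knockdown, against 126 in the fit used above. Klf4 counts were 1 with either replicate block, 7 without the factor or with HINTW as a covariate, 8 with replicate sets of all 4 groups, and 10 without Klf4 control replicate 3. These counts are not split by direction. Genes called among all tested were 440 without the factor, 0 with HINTW, 177 with replicate sets and 756 without that control, against 3 in the fit used above. The medians of the set in these 4 fits were -0.11, 0.062, -0.018 and -0.046. With the replicate block and the factor, Nanog values became 0.0063 for NOL9 and 0.042 for PES1, and UTP15 became -0.046 after Klf4 and -0.067 after PouV knockdown. UTP15 after Klf4 knockdown was -0.16 with HINTW as a covariate. UTP15 after PouV knockdown was -0.12 with the block alone, -0.072 with controls of the same experiment, and from -0.022 to 0.30 with samples left out. RRP1B after PouV knockdown ranged from -0.21 to 0.035. Apart from the calls of WDR3, EXOSC7, GNL3 and MYCN given above, the block changed no call of the 48 genes or the MYC family. The causes were not tested.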
